A study of Mus musculus with 16 samples.

Results

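Myostatin, the activins and their antagonists were described here through 9 genes: Mstn, Gdf11, Inhbb, Inha, Acvr2a, Acvr2b, Fst, Fstl3 and Fstl1. The genes were chosen by name, as myostatin and related ligands, their type II receptors and the follistatins, with earlier results of these data known. All 9 were among the 30037 genes of the count table, and all 9 passed the filter on low counts that left 15649 genes to test. The RNA came from tibialis anterior, a fast muscle of the lower hind limb, of male C57BL/6N mice aged 7 weeks, and was sequenced in 16 libraries. WT ASO Control (n = 4) were wild-type mice given the control antisense oligonucleotide. WT ASO1 (n = 2) were wild-type mice given ASO1, an antisense oligonucleotide directed against Dnm2. Dnm2SL/+ ASO Control (n = 6) carried the SL allele of Dnm2 on 1 of the 2 chromosomes and received the control oligonucleotide, and Dnm2SL/+ ASO1 (n = 4) carried the same allele and received ASO1. Every group had therefore received an oligonucleotide, and no uninjected mice were analysed here. Dnm2SL/+ is a mouse model of autosomal dominant centronuclear myopathy, a muscle disease with centrally placed nuclei, and Dnm2 encodes dynamin 2, a GTPase that cuts membranes. The dose, route and timing of the oligonucleotides are not given in the sources used here. The labels number the samples of a group separately but do not state that each is 1 animal, so the p-values measure the spread between these samples.

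Myostatin is a secreted factor of the TGF-beta superfamily, made mainly by muscle fibres, that restrains muscle growth, and mice without it have greatly enlarged muscles. Myostatin, its close relative GDF11 and the activins bind the type II receptors ACVR2A and ACVR2B, which recruit a type I receptor such as ALK4 (Acvr1b) and lead to phosphorylation of SMAD2 and SMAD3. Follistatin and FSTL3 bind these ligands in the extracellular space and block them, and inhibins, built from the alpha subunit encoded by Inha, oppose activin signalling.

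The promoters of 3 members that changed in the tests below are shown because the members moved together or in opposite directions. Each window runs from 250 bases before to 50 bases after the start of the gene in RefSeq (GRCm38.p6) and is written 5′ to 3′ on the strand of the gene. Capitals mark the E-box (CANNTG), the letters bound by myogenic transcription factors, and the TATA box (TATAAA), both searched on both strands. A RefSeq promoter was found for 8 of the 9 members, and Fst was not among them. The Mstn window is chr1:53061390-53061689 (+), the Gdf11 window is chr10:128891669-128891968 (-), and the Inha window is chr1:75507359-75507658 (+). The whole Inha window lies inside the GENCODE gene (75507077 to 75510366), after its first base. Its matches are therefore within the annotated gene and may not be those of a promoter.
Mstn: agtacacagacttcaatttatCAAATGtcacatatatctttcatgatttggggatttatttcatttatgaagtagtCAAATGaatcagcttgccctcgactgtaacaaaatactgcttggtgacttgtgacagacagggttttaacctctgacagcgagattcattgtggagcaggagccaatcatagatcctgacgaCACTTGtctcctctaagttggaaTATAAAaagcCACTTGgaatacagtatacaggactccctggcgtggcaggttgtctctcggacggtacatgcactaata
Gdf11: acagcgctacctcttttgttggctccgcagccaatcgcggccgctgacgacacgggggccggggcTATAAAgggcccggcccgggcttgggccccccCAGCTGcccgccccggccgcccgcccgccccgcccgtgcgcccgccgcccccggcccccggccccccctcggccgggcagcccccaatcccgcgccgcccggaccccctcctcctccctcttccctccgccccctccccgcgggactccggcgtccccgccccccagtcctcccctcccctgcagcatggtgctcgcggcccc
Inha: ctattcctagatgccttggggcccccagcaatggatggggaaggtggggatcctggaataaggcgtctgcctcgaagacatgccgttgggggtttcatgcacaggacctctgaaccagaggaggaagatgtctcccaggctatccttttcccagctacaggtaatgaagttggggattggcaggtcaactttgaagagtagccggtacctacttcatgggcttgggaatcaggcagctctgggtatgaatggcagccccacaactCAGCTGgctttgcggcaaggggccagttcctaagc
The Mstn window held 4 E-boxes, with first bases at -229, -174, -52 and -19 from the start, and a TATA box at -29. The Gdf11 window held 1 E-box at -153 and a TATA box at -185, and the Inha window held 1 E-box at 16 bases after the start. Of 32851 promoters of the same 300 bases, 72.3% held an E-box, 17.6% held at least 3 and 13.6% held a TATA box. The SMAD box (CAGAC, both strands), the letters that SMAD3 and SMAD4 bind, was found at -244 and -120 in the Mstn window, at -186 in the Inha window and not in the Gdf11 window, against 49.6% of all promoters. The windows of Fstl1 and Inhbb held none of the 3 motifs. The Fstl3 window held 3 E-boxes, a TATA box at -29 and SMAD boxes at -161 and -14. The Acvr2a and Acvr2b windows each held 1 SMAD box (-188 and -233). Fstl3, Acvr2a and Acvr2b were not called in any comparison, so the motifs were not particular to members that changed. A match describes the letters only.

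The libraries held 30148163 to 33667052 counts. The 7 fast fibre markers (such as Myh4 and Acta1) were detected in every group, with summed levels between 104035 and 168936 CPM over the 16 libraries. CPM are counts scaled to the library total after TMM scaling, which corrects library totals for differences in composition. The target of the oligonucleotide, Dnm2, averaged 52.7 ± 5.23 CPM (SD, n = 4) in WT mice on the control oligonucleotide and 24.0 ± 1.43 (n = 2) on ASO1, and 54.9 ± 11.7 (n = 6) and 30.5 ± 3.88 (n = 4) in the Dnm2SL/+ mice. Its log2FC with ASO1 was -0.85 in Dnm2SL/+ (adjusted p = 0.0016, edgeR) and -1.14 in WT, where it did not pass (adjusted p = 0.22). The WT groups did not overlap (unadjusted p = 4.7e-05, edgeR), in a comparison with 0 genes called. Exons of Dnm2 lie opposite exons of Tmed1, at 32.5 to 35.2 CPM in the group means. The strand setting of the counting is not given, so their reads may not be fully separated. The library labelled Dnm2SL/+ ASO Control 6 stood at 35.1 CPM for Dnm2, within the spread of the ASO1-treated mutants (26.6 to 35.2 CPM) and against its label for this gene. For Mstn (21.0 CPM), Gdf11 (19.7), Fst (6.20), Inha (5.76) and Fstl1 (116.5) this library lay outside the range of the ASO1-treated mutants. For Acvr2b and Fstl3 it lay just above that range, and for Inhbb and Acvr2a it lay inside. Whether its label is right was not tested. When it was left out, the log2FC of Dnm2 with ASO1 in Dnm2SL/+ was -0.94 (adjusted p = 7.8e-05). On the first principal component of all genes (38.7% of the variance) this library had the lowest score of its group (25.2, the others 34.2 to 53.5). The Dnm2SL/+ ASO1 libraries had scores of -13.6 to -0.91. WT ASO Control 1 had the score nearest to the mutants among the WT ASO Control libraries (-20.9, the others -45.6 to -36.3). Leaving out both of these libraries is an alternative chosen after seeing the data.

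In WT muscle, Mstn was the most abundant of the 9 transcripts per length. Levels per kilobase of exon in WT ASO Control were 21.3 ± 6.16 CPM for Mstn (SD, n = 4) and 10.5 ± 4.71 for Fstl1, and the ranges of these genes overlapped through WT ASO Control 1. Inha (5.13 ± 1.80) and Acvr2a (5.08 ± 0.525) followed at levels that did not differ beyond their spread, and Gdf11 stood at 2.29 ± 1.5. Fst (0.540 ± 0.267), Fstl3 (0.510 ± 0.130), Acvr2b (0.412 ± 0.0652) and Inhbb (0.365 ± 0.187) formed the low end and overlapped one another. In Dnm2SL/+ ASO Control the order was different. Fstl1 led at 21.3 ± 1.57 CPM per kilobase (n = 6), Gdf11 was next at 10.8 ± 3.74, and Mstn came after it at 5.71 ± 1.54. Fst had risen above the low group to 2.92 ± 1.13 CPM per kilobase, while Fstl3, Inhbb and Acvr2b stayed under 1 CPM per kilobase on average.

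**Figure D1:**
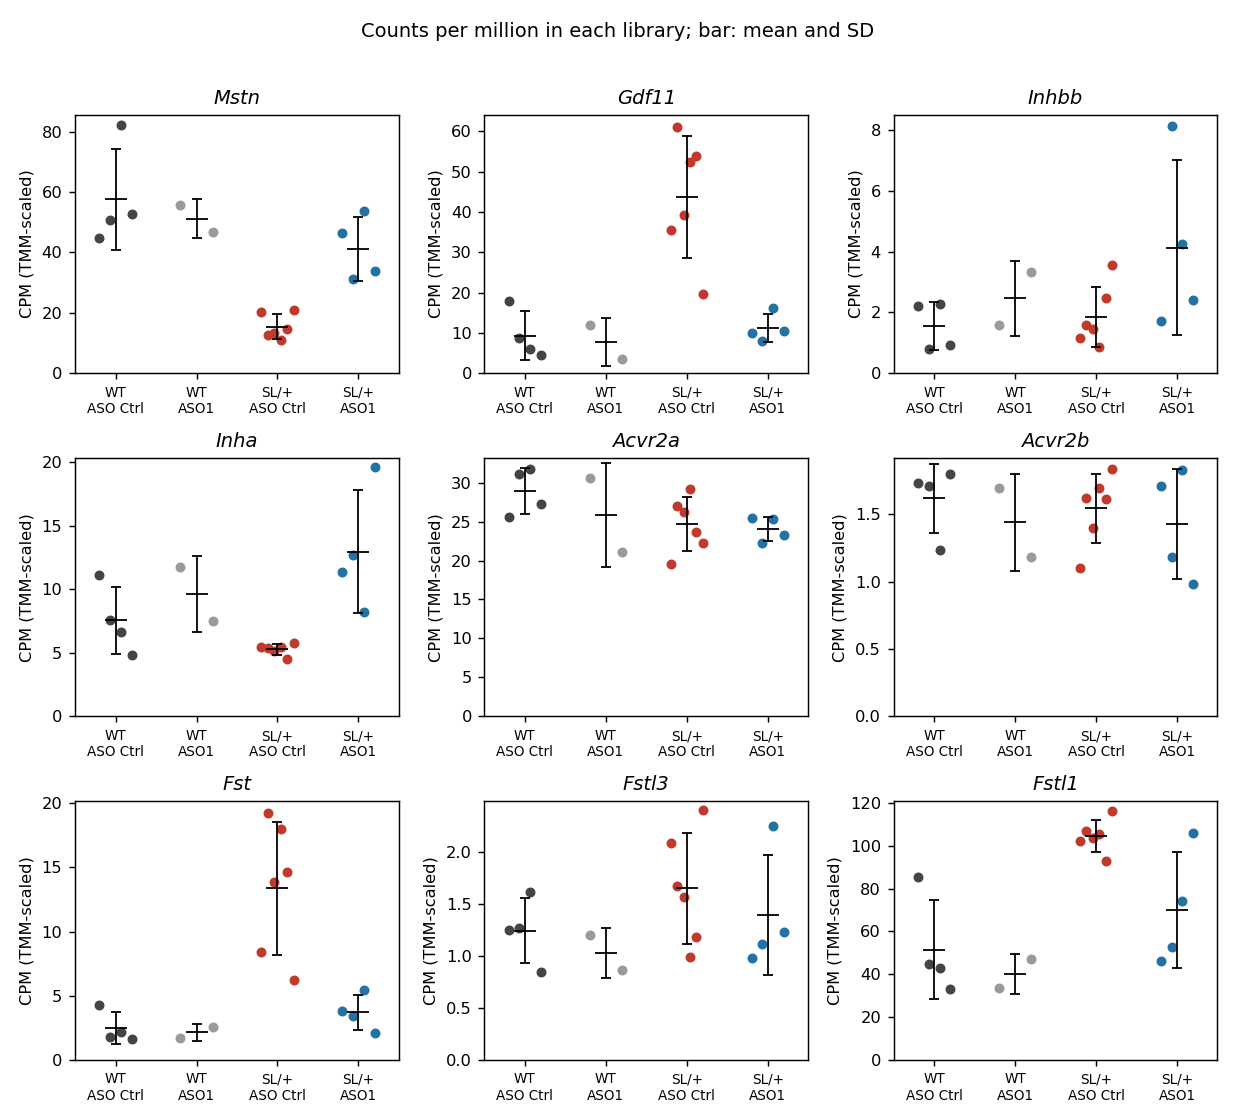
CPM (vertical axis, from 0) of the 9 genes in each library, 1 panel a gene, with points for libraries and a bar for the mean and SD of each group; SL/+ stands for Dnm2SL/+. Mstn was at 10.9 to 21.0 CPM in Dnm2SL/+ ASO Control against 44.8 to 82.1 in WT ASO Control, whereas Gdf11, Fst and Fstl1 were higher in every Dnm2SL/+ ASO Control library than in any WT ASO Control library.

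The effect of the Dnm2SL/+ genotype was tested between the mice that received the control oligonucleotide. Mstn was 3.73-fold lower in the mutant muscle, and Fst, Gdf11 and Fstl1 were 5.38-fold, 4.68-fold and 2.03-fold higher. These 4 of 9 members were called at an adjusted p under 0.05 by edgeR, 3 higher and 1 lower. Over all genes tested 32.1% were called, 15.7% higher and 16.4% lower, so the members' share is to be read against a background of nearly 1 gene in 3. The median absolute log2FC was 0.51 over the members and 0.25 over all genes. Because the members were chosen with earlier results of these data known, this difference and the share called are descriptions only. With library totals as the only scaling, the median of all genes shifted by 0.23 and 85.9% of the calls were higher, against 48.9% with TMM scaling, and the same 4 members were called.

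Mstn (chromosome 1, 53061640 to 53068079, ENSMUSG00000026100) encodes myostatin. Its level in WT ASO Control was 44.8, 50.7, 82.1 and 52.9 CPM. In Dnm2SL/+ ASO Control it was between 10.9 and 21.0 CPM with a median of 13.97 (n = 6). The highest mutant library lay below the lowest WT library by more than a factor of 2. The log2FC was -1.90 (SE 0.21, adjusted p = 9.3e-06, edgeR). The library labelled Dnm2SL/+ ASO Control 6 was the highest of its group, and leaving it out gave a log2FC of -2.0 (adjusted p = 7.5e-06).

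Gdf11 (chromosome 10, 128882295 to 128891718, ENSMUSG00000025352) encodes a ligand whose mature part is closely related to that of myostatin and which patterns the axial skeleton of the embryo. WT ASO Control held 18.0, 8.80, 5.92 and 4.44 CPM, and Dnm2SL/+ ASO Control ranged from 19.7 to 61.2 CPM with a median of 45.8. The groups did not overlap, but WT ASO Control 1 at 18.0 CPM and the library labelled Dnm2SL/+ ASO Control 6 at 19.7 CPM nearly met. Gdf11 rose by a log2FC of 2.23 (SE 0.42, adjusted p = 0.00093, edgeR), and by 2.39 (adjusted p = 0.00040) when the latter library was left out. Without both of these libraries it was 2.93 (adjusted p = 6.4e-05). The transcripts of Mstn and Gdf11 shared no exact run longer than 12 bases, so reads of one would not be assigned to the other.

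Inhbb, which encodes the beta-B subunit shared by activin B and inhibin B, was at 1.55 ± 0.797 CPM in WT ASO Control and 1.85 ± 0.994 in Dnm2SL/+ ASO Control, with overlapping ranges (log2FC 0.25, 95% interval -0.79 to 1.29, adjusted p = 0.73). The sign turned (-0.028) when the library labelled Dnm2SL/+ ASO Control 6 was left out. Inha (chromosome 1, 75507077 to 75510366, ENSMUSG00000032968), the inhibin alpha subunit, was at 11.2, 7.56, 6.68 and 4.84 CPM in WT ASO Control. It was between 4.53 and 5.76 CPM in Dnm2SL/+ ASO Control, with a median of 5.45, and only Fstl1 had a narrower spread relative to its mean in that group. The Inha groups overlapped through WT ASO Control 4, and the log2FC of -0.51 did not pass (SE 0.23, adjusted p = 0.10). It passed without that library (-0.68, adjusted p = 0.040) and in a fit of only the groups compared (-0.52, adjusted p = 0.0498). Without WT ASO Control 1, the highest WT library, it was -0.26 (adjusted p = 0.40), when the library labelled Dnm2SL/+ ASO Control 6 was left out it was -0.53 (adjusted p = 0.12), and with both of these left out it was -0.28 (adjusted p = 0.41).

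The receptors were close to level. Acvr2a, the type II receptor that activins and myostatin share, was at 28.9 ± 2.98 CPM in WT ASO Control and 24.7 ± 3.48 in Dnm2SL/+ ASO Control (log2FC -0.23, 95% interval -0.47 to 0.02, adjusted p = 0.14). Acvr2b, the receptor with the higher affinity for myostatin, was at 1.62 ± 0.256 and 1.54 ± 0.257 CPM (log2FC -0.07, 95% interval -0.50 to 0.36, adjusted p = 0.83). For both genes the sign turned with library totals as the only scaling (0.001 and 0.16). Exons of Acvr2a lie opposite exons of Orc4, which was at 20.7 to 23.5 CPM in the group means of the control mice, and the strand setting of the counting is not given in the sources used here, so their reads may not be fully separated.

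Fst (chromosome 13, 114452290 to 114458951, ENSMUSG00000021765) encodes follistatin, the secreted antagonist of activins, myostatin and GDF11. WT ASO Control held 4.29, 1.80, 2.17 and 1.65 CPM. Dnm2SL/+ ASO Control ranged from 6.20 to 19.3 CPM with a median of 14.3, and the groups did not overlap. Fst rose by a log2FC of 2.43 (SE 0.37, adjusted p = 0.00016, edgeR), by 2.59 (adjusted p = 5e-05) without the lowest mutant library, and by 2.99 without WT ASO Control 1 and the library labelled Dnm2SL/+ ASO Control 6 (adjusted p = 2.1e-05). These libraries were the highest and the lowest of their groups for Fst, as they were for Gdf11. Gm47040, annotated opposite Fst, had at most 3 counts in all libraries of a group together.

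Fstl3, a second antagonist of the same ligands, was at 1.25 ± 0.317 CPM in WT ASO Control and 1.65 ± 0.538 in Dnm2SL/+ ASO Control, with overlapping ranges (log2FC 0.41, 95% interval -0.20 to 1.02, adjusted p = 0.30). Prss57, annotated opposite Fstl3, had at most 7 counts in a whole group. Fstl1 (chromosome 16, 37776873 to 37836514, ENSMUSG00000022816) encodes a secreted glycoprotein related to follistatin by sequence that is not known chiefly as a blocker of myostatin. WT ASO Control held 85.4, 44.8, 42.7 and 33.2 CPM, and Dnm2SL/+ ASO Control ranged from 92.7 to 116.5 CPM with a median of 104.7. The groups did not overlap, and the spread of the mutant group was small beside its distance from 3 of the 4 WT libraries. Fstl1 rose by a log2FC of 1.02 (SE 0.25, adjusted p = 0.0053, edgeR). It was 0.998 (adjusted p = 0.0096) when the library labelled Dnm2SL/+ ASO Control 6 was left out and 1.38 (adjusted p = 0.00027) without WT ASO Control 1.

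The level of Fstl1 moved with markers of connective tissue cells between the groups, but not in every library within them. The 6 markers of fibroblasts and fibro-adipogenic progenitors, none of them at 0 in any group, summed to 542 to 1436 CPM in WT ASO Control and to 1350 to 1801 CPM in Dnm2SL/+ ASO Control, and 4 of the 6 were called higher. WT ASO Control 1 had the highest sum (1436 CPM) and the highest Fstl1 (85.4 CPM) of its group. The same list ranged from 572 to 1564 CPM in Dnm2SL/+ ASO1, where library 4 had both the highest sum and the highest Fstl1 (106.2 CPM). Other libraries did not follow this order. Dnm2SL/+ ASO Control 1 had the highest sum of its group (1801 CPM) but Fstl1 at 102.1 CPM, below the group median. Dnm2SL/+ ASO1 2 had the lowest sum (572 CPM) but more Fstl1 (52.8 CPM) than Dnm2SL/+ ASO1 1 (46.2 CPM, with a sum of 766). The part of these cells in the Fstl1 result was not tested, and in RNA from whole muscle, fewer cells of a type and less RNA per cell cannot be told apart. Of the other lists, 2 of 6 macrophage markers were higher, 5 of 7 fast fibre markers were lower and 1 was higher, 3 of 4 satellite cell markers were lower, and none of the 4 endothelial, 4 Schwann cell or 3 adipocyte markers was called between the genotypes. The satellite cell markers called were Calcr, Myf5 and Pax7. Their list summed to 25.56 to 29.55 CPM in WT ASO Control and 22.43 to 28.69 CPM in Dnm2SL/+ ASO Control, with overlap. Without WT ASO Control 1, all 6 fibroblast and all 6 macrophage markers were called higher. When the library labelled Dnm2SL/+ ASO Control 6 was left out these counts were 4 and 1, and the counts of the other lists stayed the same in both cases.

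**Figure D2:**
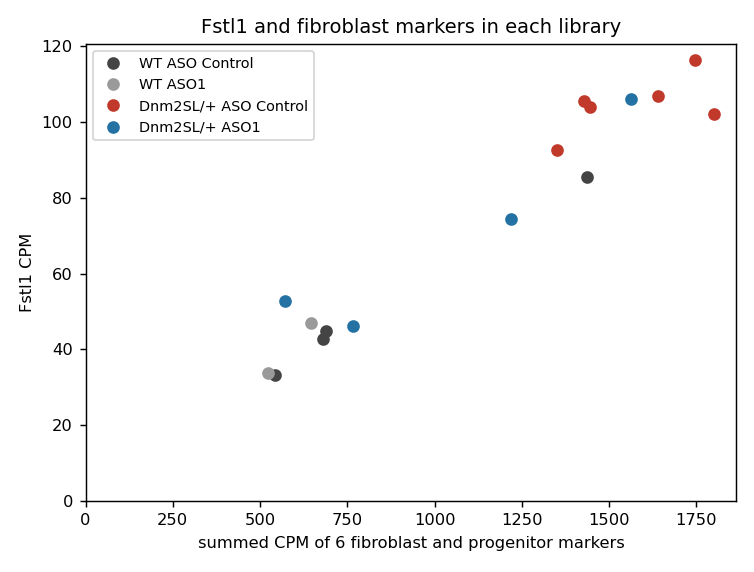
Fstl1 (vertical axis, CPM) against the summed CPM of 6 fibroblast and fibro-adipogenic progenitor markers (horizontal axis) in the 16 libraries, coloured by group. The Dnm2SL/+ ASO Control libraries lie at 1350 to 1801 summed CPM and 92.7 to 116.5 CPM of Fstl1, and WT ASO Control 1 lies nearer to them than to the other WT libraries.

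The effect of ASO1 in the mutant muscle was tested against Dnm2SL/+ ASO Control. Mstn was 2.67-fold higher and Inha 2.45-fold higher after ASO1, while Gdf11 was 3.92-fold lower and Fst 3.63-fold lower. These 4 of 9 members were called, 2 in each direction. Over all genes tested 15.0% were called, 6.96% higher and 8.06% lower. The median absolute log2FC was 1.16 over the members and 0.18 over all genes. The same limit of the choice of members applies, so neither this difference nor the share called is a result about the family. With library totals as the only scaling the median of all genes shifted by -0.13 and 14.2% of the calls were higher, against 46.3% with TMM scaling, and the same 4 members were called. Dnm2SL/+ ASO Control enters both this comparison and the one between the genotypes, so values that point in opposite directions in the 2 comparisons are not independent of each other.

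Mstn in Dnm2SL/+ ASO1 was at 46.3, 31.2, 53.7 and 33.8 CPM. All 4 libraries lay above the highest Dnm2SL/+ ASO Control library (21.0 CPM), and 2 of them lay within the range of WT ASO Control. Mstn rose by a log2FC of 1.42 (SE 0.21, adjusted p = 0.00067, edgeR), and by 1.53 (adjusted p = 0.00026) when the library labelled Dnm2SL/+ ASO Control 6 was left out.

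Gdf11 in Dnm2SL/+ ASO1 was at 10.1, 7.95, 16.1 and 10.4 CPM, below the lowest control-treated mutant library (19.7 CPM). Its log2FC was -1.97 (SE 0.42, adjusted p = 0.0053, edgeR), and -2.12 (adjusted p = 0.0022) when the library labelled Dnm2SL/+ ASO Control 6 was left out. Fst was at 3.78, 3.43, 5.46 and 2.09 CPM, also below the lowest control-treated mutant library (6.20 CPM). Fst fell by 1.86 on the log2 scale (SE 0.36, adjusted p = 0.0029), and by 2.003 (adjusted p = 0.00087) without the same library. Library 3 was the highest of the ASO1-treated mutants for Gdf11, for Fst and for Mstn. In all 4 libraries Fst was below and Mstn above the whole range of the control-treated mutants.

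Inha showed a pattern unlike the other called members. Its level in Dnm2SL/+ ASO1 was 11.4, 12.7, 8.21 and 19.6 CPM, against 4.53 to 5.76 CPM in Dnm2SL/+ ASO Control, without overlap. Inha rose by a log2FC of 1.29 (SE 0.23, adjusted p = 0.0016, edgeR), and by 1.32 (adjusted p = 0.0021) when the library labelled Dnm2SL/+ ASO Control 6 was left out. The 3 libraries other than library 3 stood above the highest WT ASO Control library (11.2 CPM), and WT ASO1 lay at 11.7 and 7.55 CPM.

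Inhbb was at 1.71, 8.14, 4.25 and 2.41 CPM in Dnm2SL/+ ASO1 and between 0.874 and 3.55 CPM in Dnm2SL/+ ASO Control, with overlapping ranges. Its log2FC of 1.16 did not pass (SE 0.46, adjusted p = 0.10), but passed when the highest of the mutant controls, the library labelled Dnm2SL/+ ASO Control 6, was left out (1.46, adjusted p = 0.041). Without Dnm2SL/+ ASO1 2, the library at 8.14 CPM, it was 0.59 (adjusted p = 0.43). Fstl1 was at 46.2, 52.8, 74.3 and 106.2 CPM in Dnm2SL/+ ASO1, and library 4 lay within the control-treated mutant range. Its log2FC of -0.58 did not pass (SE 0.24, adjusted p = 0.13). It passed without that library (-0.85, adjusted p = 0.033) or without WT ASO Control 1 (-0.58, adjusted p = 0.0496), and was -0.55 (adjusted p = 0.17) when the library labelled Dnm2SL/+ ASO Control 6 was left out. Acvr2a (log2FC -0.04, 95% interval -0.28 to 0.21), Acvr2b (-0.11, -0.55 to 0.32) and Fstl3 (-0.24, -0.84 to 0.36) did not pass.

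Cell type markers moved here too. The 4 endothelial markers summed to 306 to 524 CPM in Dnm2SL/+ ASO1 against 257 to 333 CPM in Dnm2SL/+ ASO Control, and 2 of them were called higher. The 4 satellite cell markers summed to 19.2 to 20.7 CPM against 22.4 to 28.7 CPM, with 1 called lower, Cdh15. Cdh15 was not called between the genotypes, and Calcr, Myf5 and Pax7 were not called here. Of the remaining lists, 4 of 7 fast fibre markers were higher and 1 was lower, 1 of 6 fibroblast and 1 of 6 macrophage markers were lower, and no Schwann cell or adipocyte marker was called. Without WT ASO Control 1 the fast fibre marker that was lower was no longer called, and when the library labelled Dnm2SL/+ ASO Control 6 was left out no macrophage marker was. None of these markers was at 0 in a whole group, and their part in the changes of the members was not tested.

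**Figure D3:**
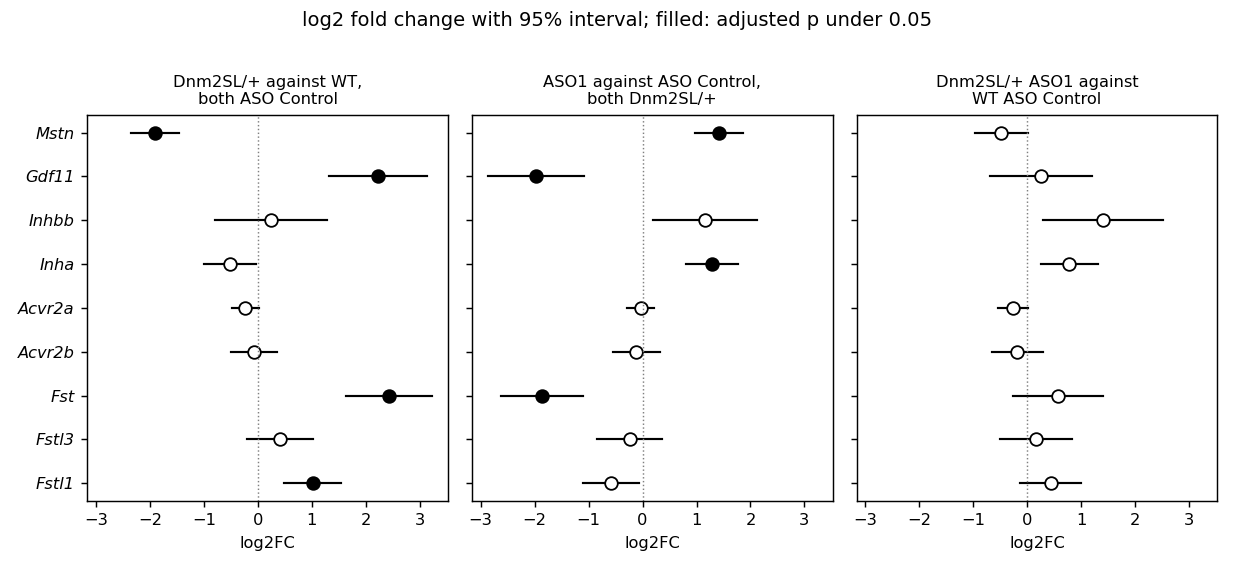
The log2FC (horizontal axis) of the 9 genes with its 95% interval in 3 comparisons, each panel naming the group and its reference; filled points have an adjusted p under 0.05 by edgeR. Mstn lies at -1.90 in the first panel and 1.42 in the second, Fst at 2.43 and -1.86, and no point is filled in the third.

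The level reached after ASO1 was compared with that of WT ASO Control. None of the 9 members was called in Dnm2SL/+ ASO1 against WT ASO Control, with 4.52% of all genes called. At an unadjusted p under 0.05 stood 2 of the 9 members and 21.7% of all genes. DESeq2 called 1 member, Inha, and limma voom called 0. Library totals as the only scaling gave 75.8% of the calls as higher, against 36.8%. Mstn stood at 41.3 ± 10.6 CPM against 57.6 ± 16.7 (log2FC -0.48, 95% interval -0.97 to 0.01, adjusted p = 0.24), and the log2FC was -0.26 (adjusted p = 0.58) without WT ASO Control 3. Gdf11 (log2FC 0.25, 95% interval -0.68 to 1.19) and Fst (0.57, -0.27 to 1.41) had intervals that included both no difference and a difference of more than 2-fold. These intervals do not show that the levels were equal. Without WT ASO Control 1 the log2FC was 0.795 for Gdf11 (adjusted p = 0.28), 0.97 for Fst (adjusted p = 0.16) and 0.795 for Fstl1 (adjusted p = 0.055, against 0.44 and adjusted p = 0.36 with all libraries).

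Inha and Inhbb lay above the WT level in this comparison without passing. Inha stood at 13.0 ± 4.80 CPM against 7.56 ± 2.66 (log2FC 0.78, SE 0.25, adjusted p = 0.086). It passed by DESeq2 (0.79, adjusted p = 0.032), without WT ASO Control 1 (1.03, adjusted p = 0.032), without Dnm2SL/+ ASO1 3 (0.94, adjusted p = 0.034) and without both WT ASO Control 1 and the library labelled Dnm2SL/+ ASO Control 6 (1.04, adjusted p = 0.034). Over 26 alternatives the adjusted p of Inha was between 0.032 and 0.27. Inhbb stood at 4.13 ± 2.88 CPM against 1.55 ± 0.797 (log2FC 1.41, 95% interval 0.30 to 2.52, adjusted p = 0.13). Its log2FC was 0.84 (adjusted p = 0.39) without Dnm2SL/+ ASO1 2, and Dnm2SL/+ ASO1 1 at 1.71 CPM lay within the WT ASO Control range. Acvr2a was at 22.3 to 25.5 CPM in Dnm2SL/+ ASO1 and 25.6 to 31.7 in WT ASO Control, ranges that did not overlap, but its log2FC of -0.26 was not called (adjusted p = 0.24).

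ASO1 was also given to WT mice, of which 2 libraries were measured. None of the members was called in WT ASO1 against WT ASO Control. edgeR called 0 genes in all (0%), with 1605 at an unadjusted p under 0.05, limma voom called 0 and DESeq2 called 92, none of them a member. Mstn was at 55.8 and 46.7 CPM in WT ASO1, within the WT ASO Control range (log2FC -0.17, adjusted p = 0.90). Gdf11 was at 11.9 and 3.52 CPM and Fst at 1.66 and 2.59 CPM. Fstl1 was at 33.7 and 46.9 CPM. No member's groups were separated in this comparison, against 4 of the 27 other pathway genes tested (listed below), of which 0 were called. The share of all genes with separated groups was not counted, so this is a description only. Between Dnm2SL/+ ASO1 and WT ASO1, 3.51% of all genes were called and none of the members, and with library totals only 83.1% of these calls were higher, against 29.1%.

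Whether ASO1 acted differently in the 2 genotypes was tested by the interaction. It was called for 2.82% of all genes (31.2% of them higher, 12.2% with library totals only) and for 1 member, Mstn. The change of Mstn with ASO1 was larger in Dnm2SL/+ than in WT by 1.59 on the log2 scale (SE 0.36, adjusted p = 0.031, edgeR). Over 25 alternatives the adjusted p was between 0.00080 and 0.13, and it was under 0.05 in 18 of them. The call was lost without WT ASO Control 3 (1.37, adjusted p = 0.059), without WT ASO1 1 (1.73, adjusted p = 0.13) and without WT ASO1 2 (1.47, adjusted p = 0.11). It was also lost without Dnm2SL/+ ASO Control 2 (1.53, adjusted p = 0.0501) or 5 (1.57, adjusted p = 0.051), and without Dnm2SL/+ ASO1 1 (1.53, adjusted p = 0.056) or 3 (1.43, adjusted p = 0.0501). Gdf11 (-1.70, adjusted p = 0.17), Fst (-1.63, adjusted p = 0.15) and Inha (0.94, adjusted p = 0.19) did not pass. Without WT ASO Control 1 and the library labelled Dnm2SL/+ ASO Control 6, Gdf11 (-2.39, adjusted p = 0.022) and Fst (-2.19, adjusted p = 0.023) passed, in the alternative chosen after seeing the data. Without WT ASO1 1 the interaction of Gdf11 was -0.56 (adjusted p = 0.81). Over 25 alternatives the adjusted p was between 0.022 and 0.81 for Gdf11 and between 0.023 and 0.39 for Fst, and each passed in 1 of them.

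The balance of ligand and antagonist transcripts was described within each library as a ratio of levels per kilobase, with no test. Mstn exceeded Fst 17.7-fold to 64.3-fold in WT ASO Control, and 57.0-fold and 30.6-fold in WT ASO1. In Dnm2SL/+ ASO Control the ratio was 1.03 to 5.75 with a median of 1.66, and it was at most 1.69 in 4 of the 6 libraries. In Dnm2SL/+ ASO1 it was 15.5 to 27.4, above every control-treated mutant library, and 2 of the 4 libraries lay below the lowest WT ASO Control library. That lowest library was WT ASO Control 1 (17.7). The other WT ASO Control libraries (47.7, 64.3 and 54.4) and both WT ASO1 libraries lay above all 4.
The ratio of Mstn to Gdf11 was 3.73 to 20.8 in WT ASO Control, and 7.03 and 19.9 in WT ASO1. It fell below 1 in 5 of the 6 Dnm2SL/+ ASO Control libraries (0.311 to 0.853), where Gdf11 was the more abundant of the pair, and was 1.60 in the library labelled Dnm2SL/+ ASO Control 6. In Dnm2SL/+ ASO1 the ratio was 4.87 to 6.91, and all 4 libraries lay within the WT ASO Control range only through WT ASO Control 1 (3.73). The other WT ASO Control libraries (8.65, 20.8 and 17.9) and both WT ASO1 libraries lay above all 4.

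**Figure D4:**
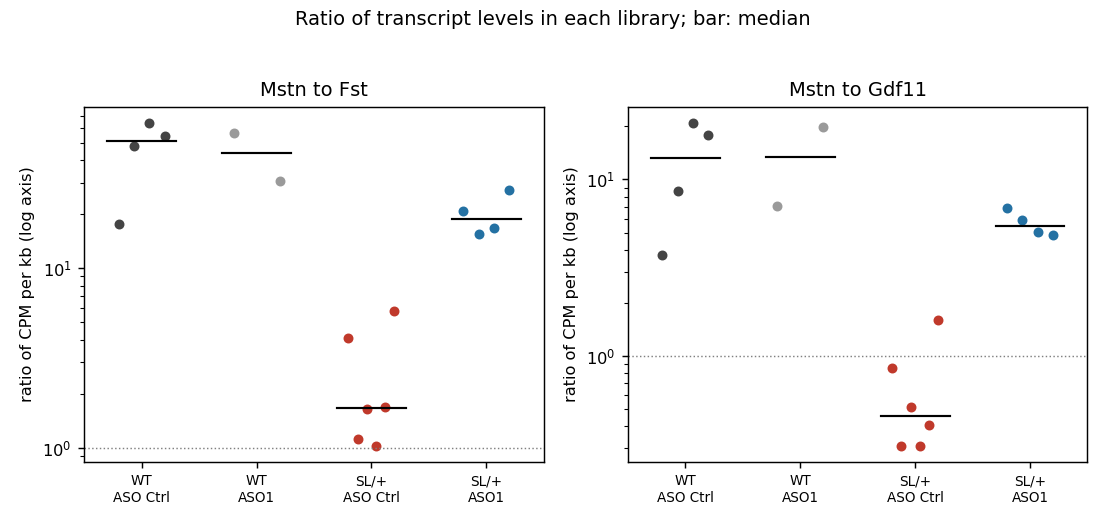
Ratio of CPM per kilobase of Mstn to Fst (left) and of Mstn to Gdf11 (right) in each library, on a log axis, with a bar at the median of each group and a dotted line at 1. The Mstn to Fst ratio lies at 1.03 to 5.75 in Dnm2SL/+ ASO Control and between 15.5 and 64.3 in the other libraries.

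Other genes of the pathway were followed through a list of 34 symbols, of which 27 were tested. The list, too, was chosen with earlier results of these data known. Inhbc, Inhbe, Gdf3, Tdgf1 and Tll2 did not pass the filter on low counts, and Fstl4 and Fstl5 were not found in the table. Between the genotypes 8 of 27 were called (29.6%, against 32.1% of all genes), 3 higher and 5 lower. The median absolute log2FC of the list was 0.26, close to the 0.25 of all genes. After ASO1 in Dnm2SL/+ 2 of 27 were called (7.41%, against 15.0%), both lower, and in Dnm2SL/+ ASO1 against WT ASO Control 3 of 27 were called (11.1%, against 4.52%), all lower. Between Dnm2SL/+ ASO1 and WT ASO1 4 of 27 were called (14.8%, against 3.51%), Tll1 higher and Smad3, Wfikkn2 and Pmepa1 lower, and none of these calls held without WT ASO1 1, where 0 of all genes were called. None was called in WT ASO1 against WT ASO Control or in the interaction. Leaving out the library labelled Dnm2SL/+ ASO Control 6 gave the same 8 calls between the genotypes, and added Ski and Smurf2, both higher, to the 2 after ASO1. Without WT ASO Control 1, Acvr1b and Wfikkn1 were no longer called between the genotypes, while Dcn and Furin were. Dcn, listed as a binder of myostatin, then had a log2FC of 0.98 (adjusted p = 0.0054, edgeR), against 0.62 (adjusted p = 0.081) with all libraries. After ASO1 in Dnm2SL/+ Dcn was at -0.68 in both fits (adjusted p = 0.041 and 0.095).

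Smad3, Smad4, Smurf2 and Acvr1b fell in the mutant muscle. Smad3, which carries the myostatin and activin signal to the nucleus, was at 177 to 240 CPM in WT ASO Control and 95.6 to 155 CPM in Dnm2SL/+ ASO Control (log2FC -0.69, SE 0.13, adjusted p = 0.00097). Smad4, its common partner, was at 42.1 to 51.0 and 33.5 to 38.6 CPM (log2FC -0.42, SE 0.08, adjusted p = 0.0011). Smurf2, a ubiquitin ligase that limits TGF-beta signalling, had a log2FC of -0.40 (adjusted p = 0.00037). For these 3 genes the groups did not overlap. Acvr1b, the type I receptor ALK4, had a log2FC of -0.78 (adjusted p = 0.030) with overlapping groups, at 133 ± 19.8 and 77.5 ± 34.4 CPM. The calls of Smad3, Smad4 and Smurf2 held with each of the 16 libraries left out, and that of Acvr1b with 10. Acvr1b was not called without WT ASO Control 1, 3 or 4 or without Dnm2SL/+ ASO Control 2, 3 or 4 (adjusted p = 0.0506 to 0.079). In Dnm2SL/+ ASO1, Acvr1b was at 129 ± 32.4 CPM. Smurf2 was at 31.8 ± 2.24 CPM there, against 36.8 ± 1.51 in WT ASO Control and 27.8 ± 2.49 in Dnm2SL/+ ASO Control. Neither gene was called against Dnm2SL/+ ASO Control (adjusted p = 0.066 and 0.074, edgeR) or against WT ASO Control (0.95 and 0.11). Smad2 was not called, and neither was Smad7, an inhibitor of the pathway.

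Smad3 and Smad4 were called lower than in WT ASO Control after ASO1 too, but not with every library left out. In Dnm2SL/+ ASO1 Smad3 was at 121 to 169 CPM (log2FC -0.55 against WT ASO Control, adjusted p = 0.047), and Smad4 at 31.2 to 40.4 CPM (-0.39, adjusted p = 0.026). The Smad3 call held with 4 of the 16 libraries left out in turn, and was lost without WT ASO Control 1 (-0.50, adjusted p = 0.082) and when the library labelled Dnm2SL/+ ASO Control 6 was left out (-0.53, adjusted p = 0.062). The Smad4 call held with 12, and was lost without WT ASO Control 3 or 4 or Dnm2SL/+ ASO1 2 or 4 (adjusted p = 0.078 to 0.10). Wfikkn2, which encodes a secreted antagonist that binds myostatin and GDF11, was at 18.5 ± 0.626 CPM in WT ASO Control and 11.2 ± 1.86 in Dnm2SL/+ ASO Control (log2FC -0.73, adjusted p = 7.7e-05). In Dnm2SL/+ ASO1 it was at 13.7 ± 1.08 CPM, lower than WT ASO Control by a log2FC of -0.43 (adjusted p = 0.044). This call held with 5 of the 16 libraries left out and was lost without WT ASO Control 1 (-0.41, adjusted p = 0.069), whereas the call between the genotypes held with all 16. Wfikkn2 thus fell in the mutant where Fst rose, although both encode antagonists. Its relative Wfikkn1 had a log2FC of 1.19 (adjusted p = 0.023) at levels under 1 CPM, a call lost without WT ASO Control 1 (1.03, adjusted p = 0.069) or 4 (1.08, adjusted p = 0.069).

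Of the genes that process or store the ligands, Pcsk5 and Ltbp3 were called in both comparisons, and Furin, Pcsk6, Bmp1 and Tll1 in neither. Pcsk5, a proprotein convertase that can cleave precursors of the family, rose in the mutant (log2FC 1.1, adjusted p = 0.023) and fell after ASO1 (-1.20, adjusted p = 0.029). Its level was 3.46 ± 2.43 CPM in WT ASO Control, 7.44 ± 1.14 in Dnm2SL/+ ASO Control and 3.23 ± 1.41 in Dnm2SL/+ ASO1. Ltbp3, a binding protein that holds latent ligands in the matrix, followed the same order at 64.7 ± 6.68, 85.1 ± 5.20 and 70.6 ± 7.98 CPM (log2FC 0.40, adjusted p = 0.0017, and -0.27, adjusted p = 0.035). The rise of Pcsk5 was 1.71 (adjusted p = 0.00044) without WT ASO Control 1, and it was not called without WT ASO Control 2, 3 or 4 (adjusted p = 0.066 to 0.078). Its fall after ASO1 was not called without Dnm2SL/+ ASO Control 2 or Dnm2SL/+ ASO1 1 or 2 (adjusted p = 0.0507 to 0.092). The rise of Ltbp3 was called with each library left out, and its fall was not called without Dnm2SL/+ ASO Control 1, 2, 3 or 4 or Dnm2SL/+ ASO1 1 or 2 (adjusted p = 0.055 to 0.12). Inhba, the activin A subunit, was at 0.786 ± 0.275 CPM in WT ASO Control and 1.08 ± 0.351 in Dnm2SL/+ ASO Control and was not called.

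**Figure D5:**
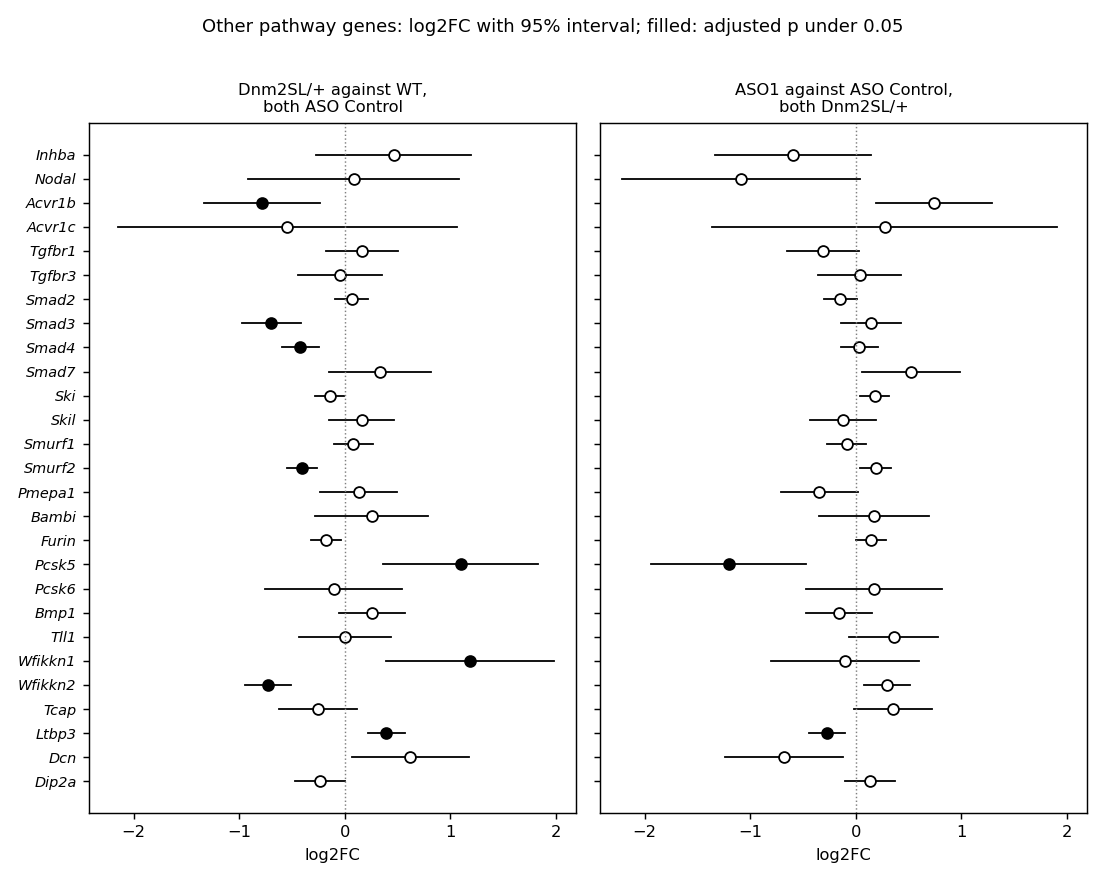
The log2FC (horizontal axis) with its 95% interval of the 27 other pathway genes tested, between the genotypes (left) and after ASO1 in Dnm2SL/+ (right); filled points have an adjusted p under 0.05 by edgeR. Of 27 points 8 are filled on the left, with Smad3 at -0.69 and Wfikkn2 at -0.73, and 2 are filled on the right.

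The genes whose levels most resembled those of Mstn, Fst and Gdf11 over the 16 libraries were listed as a description. Likeness was the root mean square difference between 2 genes of their log2 CPM, each centred on its WT ASO Control mean, among 10551 genes. The closest to Mstn was Gpt2, a mitochondrial alanine aminotransferase, with a difference of 0.29 where Mstn itself varied with an SD of 0.92. Gpt2 was at 590 CPM in WT ASO Control, 678 in WT ASO1, 186 in Dnm2SL/+ ASO Control and 358 in Dnm2SL/+ ASO1. Rmi2 (0.34) and Ccdc85c (0.41) followed.
Fst was most like Klf5 (0.35), a zinc-finger transcription factor, Perp (0.36) and Mustn1 (0.38), with its own SD at 1.25. Klf5 was at 2.74, 2.37, 13.9 and 4.31 CPM in the same order of groups. Gdf11 was most like Mustn1 (0.40), a small nuclear protein of muscle and cartilage, Map1a (0.40) and Map3k7cl (0.42), with its own SD at 1.31. Mustn1, near both Fst and Gdf11, was at 61.4, 43.4, 275.7 and 77.9 CPM.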

How the data were processed

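RNA of 16 tibialis anterior samples had been made into libraries by the submitters with the TruSeq Stranded mRNA kit. The submitters' processing notes list, without their roles, STAR 2.5.3a, HTSeq 0.6.1p1, Bowtie2 2.2.8 and cutadapt 1.10, and the mm10 (GRCm38) build. The strand setting of the counting is not given in the sources used here. The authors deposited 1 table of raw counts per gene for 30037 Ensembl genes, all of which matched a GENCODE M21 symbol. Samples were grouped by their labels, 1 of which the submitters had corrected. Groups are described in the series as holding at least 3 replicates, whereas 2 WT ASO1 libraries were analysed here.

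Counts were filtered with filterByExpr, which left 15649 genes (52.1%), scaled by TMM and fitted for all 16 libraries as 4 group means (12 residual degrees of freedom) with the quasi-likelihood test of edgeR 4.0.16 in R 4.3.3. P-values were adjusted by Benjamini-Hochberg over all genes tested, and genes were called at an adjusted p under 0.05. The test was also run on counts simulated from the fitted spread, with few genes changed. That setting does not cover the broad change between the genotypes, and its outcome is not reported here. CPM used library totals times TMM factors, and levels per kilobase used the union of exons. The sequence depth was 30148163 to 33667052 counts per library, which limits the precision of members near 1 CPM. No 2 libraries agreed within sampling noise (chi-square per degree of freedom 10.7 to 211 over 120 pairs). Alternatives were RLE, upper-quartile or no scaling beyond totals, no filter or over 1 CPM in 4 libraries, limma 3.58.1 voom (quality weights), DESeq2 1.42.0, the replicate number as a block, a fit of only the compared groups, an absolute log2FC above 1, each library left out and, added after seeing the data, both end libraries left out (WT ASO Control 1 and the library labelled Dnm2SL/+ ASO Control 6).

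The members and gene lists were chosen with earlier results of these data known. Named were all members, Dnm2, the pathway genes called in a main comparison and the 3 genes most like Mstn, Fst and Gdf11 (mean log2 CPM of at least 1, prior count 2). Promoters came from RefSeq.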

Additional observations from a re-analysis of the deposited data

Results flagged for a closer look

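Of 27 groups of 4 or 6 libraries examined over the members, 1 held a library far from the others, where chance alone gives about 1 in 20. Acvr2b was lowest in WT ASO Control 3, at 1.24 CPM, and the next library stood at 1.71 CPM, a gap that took 0.845 of the range of the group and passed the limit of Dixon's test. Acvr2b was not called in any comparison.

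The change of Mstn with ASO1 differed between the genotypes, by 1.59 on the log2 scale, in the test of the interaction by edgeR (adjusted p = 0.031). The rise in Dnm2SL/+ was 1.42, and the WT value was -0.17 with 2 libraries after ASO1. The call held in 18 of 25 alternatives and was lost when either WT ASO1 library was left out.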

How the results depend on the processing

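None of the 9 called member results changed direction under any alternative, and the 4 calls between the genotypes under ASO Control and the 4 after ASO1 in Dnm2SL/+ held under all of them. The remaining call, the interaction of Mstn, held in 18 of 25 alternatives. Of 54 member results, 820 of 864 values with 1 library left out and 567 of 585 others kept direction and side of the threshold. The largest absolute log2FC among results whose sign turned was 0.53. The causes were not tested. Acvr2b, Fstl3, Inhbb and the WT level of Fst were low, with group means between 1.03 and 4.13 CPM. Low counts limit their precision, but the part of depth in their spread was not tested.

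Genes called changed by over 1.5 times in these cases. An absolute log2FC above 1 left 1202 genes between the genotypes, 493 after ASO1 in Dnm2SL/+, 120 in Dnm2SL/+ ASO1 against WT ASO Control, 116 between the genotypes under ASO1 and 124 in the interaction. For Dnm2SL/+ ASO1 against WT ASO Control (707), the replicate block gave 446, DESeq2 1240 and only the groups compared 215, and libraries left out gave 189 to 975. For ASO1 in WT (0), DESeq2 gave 92 and libraries left out 0 to 9. Between the genotypes under ASO1 (549), no filter gave 302, the block 123, DESeq2 1157, voom 244, only the groups compared 4, and libraries left out 0 (WT ASO1 1) to 625. For the interaction (442), library totals gave 777, no filter 274, the block 115, DESeq2 1071, both end libraries left out 730, and libraries left out 30 (WT ASO1 1) to 706. Members called in Dnm2SL/+ ASO1 against WT ASO Control (0) were 1 by DESeq2 and 1 with both end libraries left out, and 0 to 1 with 1 library left out. For the interaction (1) they were 3 with both end libraries left out and 0 to 1 with 1 library left out.

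Libraries with the same replicate number showed no strong shared deviation: over 18 such pairs, deviations correlated at -0.16 to 0.25, with 3 over 0.1. The labels do not say whether the numbers pair samples, and weak correlations cannot exclude it. With the replicate block Inhbb between the genotypes turned to -0.34, and Inhbb after ASO1 in Dnm2SL/+ passed (1.59, adjusted p = 0.038). The block ended no member call.

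Signs of uncalled members turned as follows. Library totals gave 0.001 for Acvr2a and 0.16 for Acvr2b between the genotypes, 0.040 and 0.12 under ASO1, and -0.035 for Acvr2b and -0.050 for Fstl3 in the interaction. Upper-quartile scaling gave 0.012 for Acvr2b between the genotypes under ASO1. With both end libraries left out, ASO1 in WT gave 0.27 for Gdf11, 0.19 for Fst and 0.012 for Fstl1. With 1 library left out, ASO1 in Dnm2SL/+ ranged from -0.093 to 0.019 for Acvr2a and from -0.26 to 0.034 for Acvr2b. ASO1 in WT ranged from -0.45 to 0.080 for Acvr2a, -0.45 to 0.068 for Acvr2b, -0.58 to 0.18 for Fst, -0.61 to 0.001 for Fstl1, -1.41 to 0.35 for Gdf11, -0.007 to 0.63 for Inha and -0.31 to 0.051 for Mstn. Between the genotypes under ASO Control, Acvr2b ranged from -0.18 to 0.024 and Inhbb from -0.028 to 0.49. Under ASO1, Acvr2a ranged from -0.34 to 0.19, Acvr2b from -0.25 to 0.27 and Gdf11 from -0.097 to 1.66. Fstl3 in Dnm2SL/+ ASO1 against WT ASO Control ranged from -0.16 to 0.31. The interaction ranged from -0.12 to 0.42 for Acvr2a, -0.18 to 0.34 for Acvr2b, -0.58 to 0.033 for Fstl1, -0.30 to 0.29 for Fstl3 and -0.074 to 1.12 for Inhbb.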
